A study of Homo sapiens with 82 samples.

Results

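The 10 genes described here encode the D- and E-type cyclins (CCND1, CCND2, CCND3, CCNE1, CCNE2), CDK inhibitors of the Cip/Kip family (CDKN1A, CDKN1B) and of the INK4 family (CDKN2B, CDKN2C), and SKP2. They were chosen by symbol from the 51838 gene rows of the series, and each symbol matched 1 row. Their mRNA was measured in HT29, an established human colorectal adenocarcinoma cell line, in 32 of the 82 libraries of the series. The cells received DMSO, the carrier, or 10 μM of GW3965, T0901317 or rosiglitazone for 24 or 48 h, and each of the 8 groups had 4 libraries. GW3965 and T0901317 are synthetic agonists of the liver X receptors (LXRs) and rosiglitazone is an agonist of PPARG, all of them nuclear receptors. Before treatment, all cells were kept without phenol red in serum stripped with charcoal and dextran, and DMSO libraries were made for 24 h and for 48 h. The ChIP-seq libraries of the series were not analysed here.

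D-type cyclins bind CDK4 and CDK6, and E-type cyclins bind CDK2. These kinases phosphorylate RB1 and its relatives, which releases E2F factors and lets cells pass from G1 into S phase. INK4 inhibitors such as p15 (CDKN2B) and p18 (CDKN2C) block CDK4 and CDK6, whereas p21 (CDKN1A) and p27 (CDKN1B) bind a wider range of cyclin and CDK pairs. SKP2 is the F-box protein of a ubiquitin ligase that marks p27 for degradation. In the intestinal epithelium, dividing crypt cells give rise to mature cells that no longer divide, and genes of this kind take part in that change. Several of the proteins are controlled by degradation and by phosphorylation, which mRNA counts do not show.

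Promoter windows are printed for 4 members, those with the largest fold changes with GW3965 at 48 h among members with a single annotated start, since the results turn on them. Each run is the 250 bases before the RefSeq start (GRCh38.p14), 5′ to 3′ on the gene's strand, and capitals mark GC boxes (GGGCGG on either strand), the sequence bound by SP1-type factors. CDKN1A is at chr6:36678464-36678713 on the plus strand, CDKN2B at chr9:22009306-22009555 on the minus strand, SKP2 at chr5:36151861-36152110 on the plus strand and CCNE1 at chr19:29811741-29811990 on the plus strand.
CDKN1A: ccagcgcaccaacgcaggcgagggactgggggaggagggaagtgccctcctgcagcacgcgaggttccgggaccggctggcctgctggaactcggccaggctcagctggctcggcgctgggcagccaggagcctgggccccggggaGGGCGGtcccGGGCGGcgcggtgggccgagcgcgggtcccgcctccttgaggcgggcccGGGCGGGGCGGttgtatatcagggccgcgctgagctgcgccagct
CDKN2B: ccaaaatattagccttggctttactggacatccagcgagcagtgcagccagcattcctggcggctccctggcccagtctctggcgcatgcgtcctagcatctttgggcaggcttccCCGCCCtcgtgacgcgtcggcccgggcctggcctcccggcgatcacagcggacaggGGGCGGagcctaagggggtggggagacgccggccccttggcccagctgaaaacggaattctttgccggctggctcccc
SKP2: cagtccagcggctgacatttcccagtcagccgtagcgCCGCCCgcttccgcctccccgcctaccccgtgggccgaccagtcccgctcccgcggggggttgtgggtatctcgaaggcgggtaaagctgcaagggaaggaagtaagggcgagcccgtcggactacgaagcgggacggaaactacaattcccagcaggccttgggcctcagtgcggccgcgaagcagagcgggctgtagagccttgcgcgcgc
CCNE1: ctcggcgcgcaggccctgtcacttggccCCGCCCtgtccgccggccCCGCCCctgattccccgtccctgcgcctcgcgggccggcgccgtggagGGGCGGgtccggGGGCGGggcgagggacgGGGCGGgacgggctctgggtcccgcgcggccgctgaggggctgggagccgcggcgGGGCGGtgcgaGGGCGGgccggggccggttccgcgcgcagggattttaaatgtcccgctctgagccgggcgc
The CDKN1A window held 4 GC boxes, with a pair that shares bases, and 7.6% of all 35116 windows of this length held as many. CDKN2B held 2 (24.3% of windows held as many), SKP2 held 1 (42.6%) and CCNE1 held 7 (1.1%). A CCAAT box (CCAAT on either strand, 32% of all windows) was in none of the 4 windows, and neither was a TATA box (TATAAA on either strand, 10.7% of all windows). Of the other members, CDKN1B had 1 GC box and 2 CCAAT boxes, while CDKN2C and CCND3 had 3 annotated starts each. A match is a description of these letters and not a measured binding site. CCND1, CCND2 and CCNE2 are not shown.

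The libraries held from 21044798 to 51332656 counts, with a median of 38112279.5. Levels are given as CPM, counts scaled to a common library total, after all 32 libraries were adjusted with the TMM method, whose factors ran from 0.872 to 1.1. All 10 epithelial and colon markers were present at a median of at least 1 CPM, and their sum lay between 15546 and 23485 CPM. Of 6 fibroblast markers only COL1A1 reached that level, with LUM just under it at a median of 0.986 CPM. Of 4 lymphocyte and myeloid markers only CD14 reached it, and of the 2 endothelial markers tested neither did, while PECAM1 had no row. These 3 sums stayed at or under 9.89, 3.99 and 0.586 CPM. At 48 h the sum of the lymphocyte and myeloid markers was 0.50 to 0.875 CPM in DMSO, 2.42 to 2.68 with GW3965, 3.21 to 3.99 with T0901317 and 0.463 to 0.875 with rosiglitazone, while PTPRC and CD3E had a median of 0 CPM. The fibroblast sum at 48 h was 5.48 to 7.57 CPM in DMSO, 8.85 to 9.89 with GW3965, 6.43 to 9.46 with T0901317 and 7.39 to 8.45 with rosiglitazone. The epithelial sum was 18291 to 19426 CPM in DMSO, 17597 to 18326 with GW3965, 15546 to 17242 with T0901317 and 19769 to 23485 with rosiglitazone. The part of these shifts in the results was not tested. Treatments were made in quadruplicate, but whether the replicates came from separately kept cultures is not stated, so p-values measure only the spread between these libraries. In these bulk samples, fewer cells of a kind and less RNA per cell cannot be told apart. CPM is not corrected for transcript length, so levels are compared between groups and not between genes.

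Of the members, 9 passed the filter for low counts at both time points. CCND2, the remaining D-type cyclin, had 11 reads in all, spread over 5 of 32 libraries with at most 4 in a library, and was not tested. At this depth, 3 counts corresponded to between 0.0579 and 0.141 CPM, so CCND2 mRNA was at or near the limit of detection in each group. A member was called when edgeR's quasi-likelihood test gave an adjusted p under 0.01 over all genes of the time point. At either time, the 4 DMSO libraries served for all 3 drugs, so the drug results are not independent.

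At 24 h, few members responded to the LXR agonists. GW3965 raised CDKN1A and lowered SKP2, while 2.73% of 21781 genes were called (1.86% higher and 0.868% lower). T0901317 raised CDKN1A alone, against 1.45% of genes called, of which 1.33% were higher and 0.119% lower. Rosiglitazone lowered 3 members, CCND1, CDKN1A and CDKN1B, with 12.3% of genes called (5.81% higher and 6.52% lower). It raised none by edgeR or by DESeq2, and none was higher at an unadjusted p under 0.05. Over the 9 members, the median log2 fold change was -0.21 for GW3965, -0.12 for T0901317 and -0.16 for rosiglitazone, against -0.01, 0.00 and -0.02 over all genes. The libraries of drug and DMSO did not overlap for 4 members with GW3965 (9.73% of genes), 3 with T0901317 (8.55%) and 5 with rosiglitazone (25.6%). With scaling by library size alone, the share of called genes that were higher was 55.4% in place of 68.2% with GW3965 and 25.2% in place of 47.1% with rosiglitazone.

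At 48 h, 8 of the 9 members were called with GW3965, 4 higher (CCND3, CCNE1, CDKN2C, SKP2) and 4 lower (CCND1, CDKN1A, CDKN1B, CDKN2B). Of 22470 genes, 33.6% were called, 16.1% higher and 17.5% lower. T0901317 raised 3 members (CCNE1, CDKN2C, SKP2) and lowered the same 4 as GW3965, against 30% of genes called (14% higher and 16.1% lower). Rosiglitazone lowered 4 members, CCND1, CCNE2, CDKN1B and SKP2, with 25.5% of genes called (12.3% higher and 13.1% lower). It raised none by edgeR or DESeq2, and CDKN1A was the 1 member higher at an unadjusted p under 0.05. The median log2 fold change of the 9 members was 0.32 for GW3965, 0.41 for T0901317 and -0.33 for rosiglitazone, beside 0.00, 0.01 and -0.01 over all genes. The libraries of drug and DMSO did not overlap for 7 members with GW3965 (45.9% of genes), 9 with T0901317 (39.9%) and 5 with rosiglitazone (33.1%). Scaling by library size alone moved the median of all genes with rosiglitazone by -0.179, and the share of called genes that were higher from 48.4% to 20.1%.

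**Figure D1:**
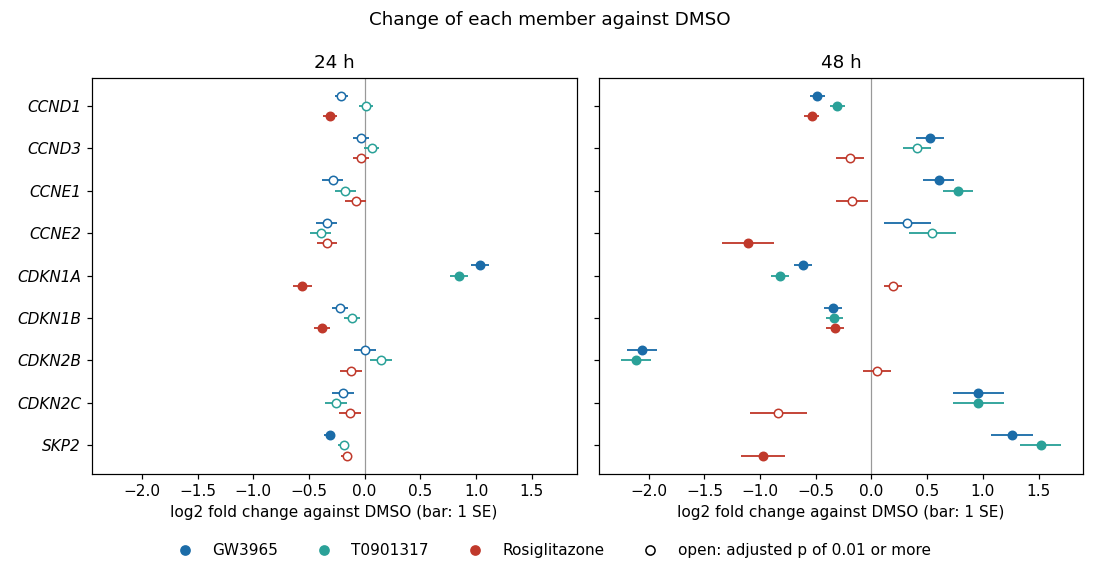
Log2 fold change of each tested member against the DMSO group of its time point (x axis, bar 1 SE, fits over 16 libraries), with filled points for members called at an adjusted p under 0.01. At 24 h only CDKN1A lies more than 0.6 from 0, whereas at 48 h CDKN2B lies below -2 with both LXR agonists and SKP2 lies to the right of 0 with these and to the left with rosiglitazone.

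In DMSO, all 9 tested members were called between 24 and 48 h, when 38.6% of 23140 genes were called (19.7% higher and 18.9% lower). Of the 4 that rose, CDKN1A and CDKN2B rose by 2.49 (log2, SE 0.08, adjusted p = 1.30e-21) and 2.44 (SE 0.12, adjusted p = 3.01e-17), and CCND1 and CDKN1B by 0.31 and 0.38. Of the 5 that fell, SKP2 fell by 1.90 (SE 0.14, adjusted p = 1.17e-12), CDKN2C fell by 1.87 (SE 0.18, adjusted p = 2.15e-10), CCNE2 by 1.30, CCNE1 by 1.25 and CCND3 by 0.94. Inhibitors were thus found in both directions, as were cyclins. The time points were deposited in separate count tables, and hours in culture cannot be told apart from anything else that differed between the 2 sets of libraries. In comparisons that were added after the data had been seen, 5 members were called from 24 to 48 h with GW3965 (31.4% of genes), 3 with T0901317 (32.1%) and 8 with rosiglitazone (43.6%). The count with GW3965 was 2 without its replicate 3 of 48 h, and 3 without its replicate 4 of 24 h or its replicate 1 of 48 h. With T0901317, scaling by library size alone moved the median of all genes by 0.104 and the share of higher values among called genes from 49.2% to 66.3%.

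CDKN1A (ENSG00000124762.7), which encodes p21, was called higher at 24 h and lower at 48 h with both LXR agonists. The only other member called in opposite directions at the 2 time points with the same drug was SKP2, with GW3965. At 24 h the level of CDKN1A in the 4 DMSO libraries was 12, 9.68, 11.3 and 12.1 CPM. With GW3965 it was 22.3, 24.9, 22.0 and 23.5 CPM, and with T0901317 19.1, 21.3, 20.5 and 20.2 CPM. All 8 LXR agonist libraries were above all DMSO libraries. CDKN1A rose by 1.03 (log2, SE 0.08, adjusted p = 2.99e-08) with GW3965 and by 0.84 (SE 0.08, adjusted p = 1.06e-06) with T0901317, by edgeR. With rosiglitazone the 4 libraries held 7.86, 6.78, 8.28 and 7.87 CPM. They lay below every DMSO library, and the gene fell by 0.56 (log2, SE 0.08, adjusted p = 6.66e-05). At 48 h the DMSO libraries held 66.0, 60.1, 60.9 and 66.9 CPM. GW3965 gave 42.5, 34.6, 47.7 and 41.7 CPM, and T0901317 33.1, 36.2, 35.4 and 38.7 CPM. Both agonist groups were now below all DMSO libraries, and CDKN1A fell by 0.61 (SE 0.08, adjusted p = 4.49e-06) and by 0.82 (SE 0.08, adjusted p = 1.35e-07). The rosiglitazone libraries, with 68.5, 77.3, 71.3 and 77.3 CPM, lay above the DMSO libraries, but the difference of 0.19 (SE 0.08) did not pass the test (adjusted p = 0.0678).

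Tested directly over all 32 libraries, the response of CDKN1A at 48 h differed from that at 24 h by -1.64 (log2, SE 0.11, adjusted p = 6.37e-13) with GW3965. For T0901317 the difference was -1.67 (SE 0.11, adjusted p = 6.65e-13), and for rosiglitazone it was 0.77 (SE 0.12, adjusted p = 8.67e-05). The reversal with the LXR agonists came with unequal changes over time, since CDKN1A rose from 24 to 48 h in every treatment. It rose 5.62-fold in DMSO, 1.80-fold with GW3965, 1.77-fold with T0901317 and 9.56-fold with rosiglitazone. The order of the 8 group means ran from 73.6 ± 4.44 CPM (SD, n = 4) with rosiglitazone at 48 h to 7.70 ± 0.642 with rosiglitazone at 24 h. Of the neighbours in this order, only GW3965 and T0901317 at 48 h overlapped.

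CDKN1B (ENSG00000111276.5), which encodes p27, moved far less. Its group means ran from 12.7 ± 0.258 CPM (SD, n = 4) with rosiglitazone at 24 h to 21.5 ± 0.931 in DMSO at 48 h. At 24 h it fell by 0.38 (log2, SE 0.07, adjusted p = 0.000611) with rosiglitazone, whose libraries lay between 12.4 and 13 CPM against 15.1 to 17.4 CPM in DMSO. With the LXR agonists at 24 h the differences were -0.22 (adjusted p = 0.0900) and -0.12 (adjusted p = 0.568), and the groups overlapped. At 48 h the DMSO libraries held between 20.4 and 22.6 CPM, and all 12 drug libraries were lower. CDKN1B fell by 0.35 (SE 0.08, adjusted p = 0.00129) with GW3965, by 0.33 (SE 0.08, adjusted p = 0.00210) with T0901317 and by 0.33 (SE 0.08, adjusted p = 0.00290) with rosiglitazone. The call with T0901317 was lost with scaling by library size alone (adjusted p = 0.0124). That with rosiglitazone was lost without replicate 1 or replicate 3 of DMSO or without replicate 2 of rosiglitazone, with adjusted p from 0.0102 to 0.0146. No drug had a response of CDKN1B that was called different between the time points.

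CDKN2B (ENSG00000147883.8), the p15 gene and a known target of TGF-beta signalling, had the largest fold changes of all members against DMSO. At 24 h its 16 libraries lay between 5.99 and 8.15 CPM with overlapping groups, and no difference was called. At 48 h the DMSO libraries held 37.6, 33.6, 39.1 and 39.1 CPM. With GW3965 they held 9.90, 8.10, 9.35 and 8.56 CPM, and with T0901317 8.22, 8.74, 7.39 and 10.0 CPM. Both agonist groups were far below every DMSO library and close to the levels of 24 h. CDKN2B fell by 2.06 (log2, SE 0.13, adjusted p = 5.22e-10), or 4.17-fold, with GW3965 and by 2.12 (SE 0.13, adjusted p = 3.92e-10), or 4.34-fold, with T0901317. Rosiglitazone gave 26.7, 41.7, 46.8 and 41.5 CPM. Replicate 1 was below the DMSO libraries and the other three above them, and the difference of 0.05 (SE 0.13) did not pass the test (adjusted p = 0.804).

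The rise of CDKN2B from 24 to 48 h in DMSO was 5.42-fold and that with rosiglitazone 6.15-fold. With GW3965 the ratio was 1.30 (adjusted p = 0.0129) and with T0901317 1.13 (adjusted p = 0.273), and neither was called by edgeR. The rise with GW3965 was called by DESeq2 (adjusted p = 0.00965) and with scaling by library size alone (adjusted p = 0.00676). The responses at 48 and 24 h differed by -2.06 (log2, SE 0.17, adjusted p = 5.34e-11) with GW3965 and by -2.27 (SE 0.17, adjusted p = 8.03e-12) with T0901317. For rosiglitazone they differed by 0.18 (adjusted p = 0.604, 95% interval -0.16 to 0.53). CDKN2B-AS1, a non-coding gene antisense to CDKN2B, had from 27 to 84 counts per library, against 161 to 1718 for CDKN2B. The strand setting of the authors' counting is not given in the sources used here, so reads where both genes overlap cannot be told apart. CDKN2B-AS1 differed from DMSO by -0.20 (SE 0.19, adjusted p = 0.435) with GW3965 and by 0.30 (SE 0.19, adjusted p = 0.221) with T0901317 at 48 h.

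CDKN2C (ENSG00000123080.6) encodes p18, the second INK4 inhibitor, and went the other way. The 16 libraries of 24 h lay between 6.52 and 10.2 CPM, and no difference was called at that time. At 48 h it was 2.00, 2.86, 2.27 and 2.74 CPM in DMSO. GW3965 gave 4.56, 3.93, 5.58 and 5.13 CPM and T0901317 4.73, 4.96, 5.06 and 4.45 CPM. All 8 agonist libraries were above the highest DMSO library, and CDKN2C rose by 0.96 (log2, SE 0.23) with each agonist (adjusted p = 0.00179 with GW3965 and 0.00199 with T0901317). With rosiglitazone it was 2.48, 1.46, 0.790 and 0.785 CPM, so that replicate 1 lay within the DMSO range and the others below it. The difference of -0.84 (SE 0.26, adjusted p = 0.0150) was not called. Without replicate 1 of rosiglitazone it was -1.31 (adjusted p = 5.52e-05), and it was also called with DESeq2 (adjusted p = 0.00517). The decrease from 24 to 48 h was 3.65-fold in DMSO, 1.63-fold with GW3965, 1.57-fold with T0901317 and 5.87-fold with rosiglitazone, and edgeR called each of these 4 changes. The change with T0901317 was lost with scaling by library size alone (adjusted p = 0.0106). The responses to the LXR agonists at 48 and 24 h differed by 1.16 (SE 0.24, adjusted p = 0.000384) and 1.22 (SE 0.25, adjusted p = 0.000275).

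SKP2 (ENSG00000145604.10) was lowered by GW3965 at 24 h, raised by both LXR agonists at 48 h and lowered by rosiglitazone at 48 h. At 24 h it was 62.3, 57.4, 60.1 and 56.4 CPM in DMSO. The 12 drug libraries, from 44.9 to 53.9 CPM, all lay below these. SKP2 fell by 0.31 (log2, SE 0.05, adjusted p = 0.000311) with GW3965. The differences with T0901317 (-0.19, adjusted p = 0.0424) and rosiglitazone (-0.16, adjusted p = 0.0238) were not called, although DESeq2 called both (adjusted p = 0.00323 and 0.00975). The call with GW3965 was lost when all 32 libraries were fitted together (adjusted p = 0.258).

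At 48 h, SKP2 was 14.2, 19.6, 14.6 and 15.1 CPM in DMSO. With GW3965 it was 38.3, 37.6, 36.1 and 40.8 CPM, and with T0901317 45.2, 48.4, 43.6 and 45.0 CPM. The lowest agonist library was well above the highest DMSO library. SKP2 rose 2.40-fold (log2 1.26, SE 0.18, adjusted p = 1.42e-05) with GW3965 and 2.87-fold (log2 1.52, SE 0.18, adjusted p = 1.80e-06) with T0901317. In the rosiglitazone libraries it was 12.9, 8.72, 4.22 and 6.81 CPM, all below DMSO and with a wide spread. SKP2 fell by 0.97 (SE 0.20, adjusted p = 0.000683) with rosiglitazone, a call that was lost when only these 2 groups were fitted (adjusted p = 0.0112). Without replicate 1 of rosiglitazone, the highest of the group, it fell by 1.30 (adjusted p = 2.27e-06).

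Over time, SKP2 fell 3.72-fold in DMSO and 6.47-fold with rosiglitazone. With GW3965 the ratio of 24 to 48 h was 1.25 (adjusted p = 0.0592) and with T0901317 1.14 (adjusted p = 0.290), neither of them called. The responses differed between 48 and 24 h by 1.58 (log2, SE 0.20, adjusted p = 2.04e-07) with GW3965 and by 1.71 (SE 0.20, adjusted p = 4.89e-08) with T0901317. With rosiglitazone the difference was -0.80 (SE 0.21, adjusted p = 0.0165). Without replicate 1 of rosiglitazone at 48 h this last value was -1.13 (adjusted p = 1.29e-05), and DESeq2 called it with all libraries (adjusted p = 0.00306).

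**Figure D2:**
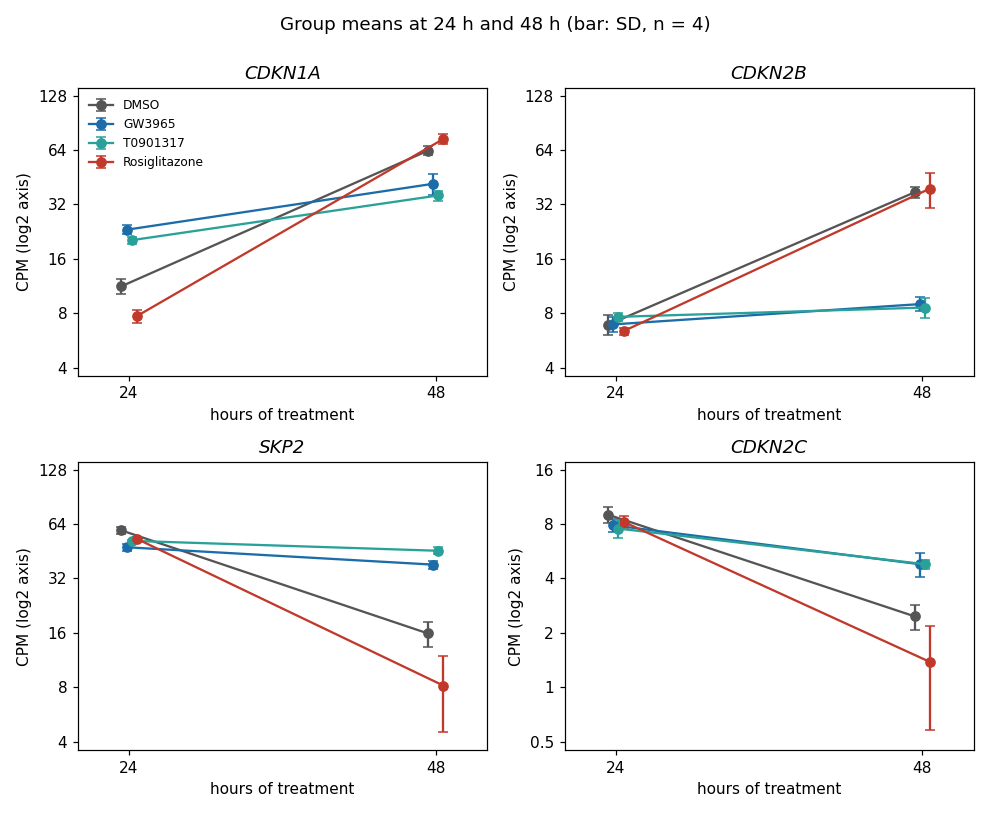
Mean level of 4 members at 24 and 48 h of treatment (CPM on a log2 axis, with a lower range for CDKN2C; bar SD, n = 4). The lines of DMSO and rosiglitazone run steeply, upward for CDKN1A and CDKN2B and downward for SKP2 and CDKN2C, whereas those of GW3965 and T0901317 are flatter in each panel, and for CDKN2B they stay between 6.93 and 8.98 CPM.

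Of the E-type cyclins at 48 h, CCNE1 was called higher with both LXR agonists and CCNE2 lower with rosiglitazone. CCNE1 (ENSG00000105173.7) had overlapping groups at 24 h, with 9.02 to 14.3 CPM over all libraries, and no difference was called. At 48 h it was 5.17, 6.32, 4.42 and 5.65 CPM in DMSO. With GW3965 it was 8.32, 9.35, 6.05 and 9.08 CPM, and with T0901317 9.84, 9.15, 9.24 and 8.55 CPM. The T0901317 libraries lay above all DMSO libraries, while replicate 3 of GW3965 lay within the DMSO range. CCNE1 rose by 0.60 (log2, SE 0.14, adjusted p = 0.00118) with GW3965 and by 0.77 (SE 0.14, adjusted p = 0.000114) with T0901317. With rosiglitazone the difference was -0.18 (SE 0.14, adjusted p = 0.358). The responses to the agonists at 48 and 24 h differed by 0.89 (SE 0.17, adjusted p = 0.000103) and 0.95 (SE 0.17, adjusted p = 5.21e-05).

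CCNE2 (ENSG00000175305.11) was lower with all 3 drugs at 24 h in each library, from 7.36 to 10.1 CPM against 10.4 to 11.9 CPM in DMSO. These differences, of -0.34, -0.39 and -0.34 (log2), did not pass the threshold (adjusted p = 0.0350, 0.0233 and 0.0125). DESeq2 called those with T0901317 (adjusted p = 0.00468) and rosiglitazone (adjusted p = 0.00736). At 48 h the DMSO libraries held 5.35, 4.66, 3.44 and 4.97 CPM. Rosiglitazone gave 3.37, 1.98, 1.14 and 2.09 CPM, all below DMSO, and CCNE2 fell by 1.11 (SE 0.23, adjusted p = 0.000883). With GW3965 the difference was 0.32 (SE 0.21, adjusted p = 0.232) and with T0901317 0.55 (SE 0.21, adjusted p = 0.0427). The T0901317 libraries, from 5.90 to 7.41 CPM, all lay above DMSO. Their difference was called by edgeR when only these 2 groups were fitted (adjusted p = 0.0033), with the replicate block (adjusted p = 0.00795) and with all 32 libraries (adjusted p = 0.00988). Among 7 alternatives the highest adjusted p was 0.0396. The T0901317 response at 48 h differed from that at 24 h by 0.94 (SE 0.24, adjusted p = 0.00267), and without replicate 3 of DMSO at 48 h by 0.82 (adjusted p = 0.0109).

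Among the D-type cyclins, CCND1 (ENSG00000110092.2) is a target of Wnt and growth factor signalling. It was lower with all 3 drugs at 48 h, when the DMSO libraries held 112, 104, 111 and 107 CPM. GW3965 gave 76.4, 79.0, 79.2 and 76.2 CPM, T0901317 94.7, 85.2, 84.9 and 86.4 CPM, and rosiglitazone 67.8, 76.2, 88.0 and 71.9 CPM. None of the 12 drug libraries reached the lowest DMSO library. CCND1 fell by 0.49 (log2, SE 0.07, adjusted p = 7.33e-06) with GW3965, by 0.31 (SE 0.07, adjusted p = 0.00106) with T0901317 and by 0.53 (SE 0.07, adjusted p = 4.11e-06) with rosiglitazone. At 24 h rosiglitazone lowered it by 0.31 (SE 0.06, adjusted p = 0.00103), with 67.4 to 74.7 CPM against 82.6 to 93.8 CPM in DMSO. The 24 h difference with GW3965 was -0.21 (adjusted p = 0.0563), without overlap with DMSO, and was called with scaling by library size alone (-0.26, adjusted p = 0.00596). With T0901317 it was 0.01 (adjusted p = 0.968). The T0901317 response at 48 h differed from that at 24 h by -0.32 (SE 0.09, adjusted p = 0.00730), a call that was lost without any 1 of 10 libraries, with adjusted p up to 0.0208. It was also lost with scaling by library size alone (adjusted p = 0.017), without the low-count filter (adjusted p = 0.0162) and with the replicate block (adjusted p = 0.0125).

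CCND3 (ENSG00000112576.8) had means between 95.2 and 101 CPM in the 4 groups of 24 h, and no difference was called. At 48 h it was 49.9, 56.9, 45.8 and 49.7 CPM in DMSO. GW3965 gave 73.6, 74.5, 66.7 and 77.7 CPM and T0901317 78.2, 67.6, 57.3 and 64.8 CPM. Neither agonist group overlapped with DMSO. CCND3 rose by 0.53 (log2, SE 0.13, adjusted p = 0.00203) with GW3965. The difference of 0.41 (SE 0.13, adjusted p = 0.0146) with T0901317 missed the threshold in the main edgeR fit of the 48 h libraries. It was called by edgeR with the replicate block (adjusted p = 0.00243) and without the low-count filter (adjusted p = 0.00533). Scaling by library size alone (adjusted p = 0.00986) and fitting only these 2 groups (adjusted p = 0.00124) also gave a call. So did DESeq2 (adjusted p = 0.00667) and all 32 libraries in the fit (adjusted p = 0.00280). Among 7 such alternatives the highest adjusted p was 0.0128. Rosiglitazone ranged from 33.4 to 57.1 CPM, across the DMSO values, with a difference of -0.19 (adjusted p = 0.260). The response to GW3965 differed between the time points by 0.56 (SE 0.15, adjusted p = 0.00435), which was lost without any 1 of 7 libraries, with adjusted p up to 0.0157.

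**Figure D3:**
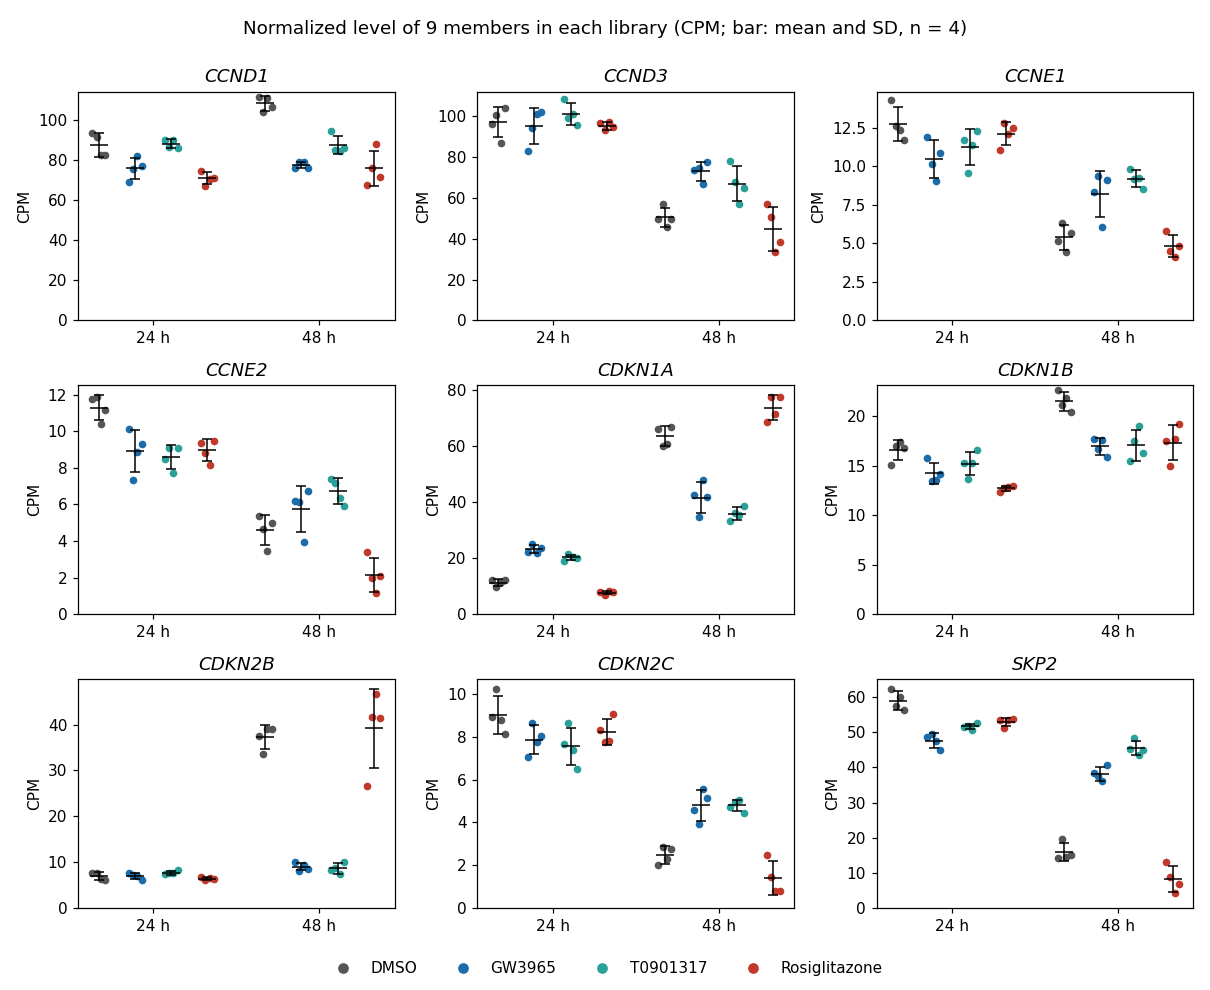
CPM of the 9 tested members in each library (points), by time point and treatment, with the mean and SD of each group (n = 4). Rosiglitazone libraries at 48 h are spread more widely than those of 24 h for SKP2, CDKN2B, CDKN2C and CCND3, and DMSO at 48 h has the highest mean of CCND1 (109 CPM) and CDKN1B (21.5 CPM).

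The LXR agonists were also compared directly at the same dose. T0901317 against GW3965 gave 0 called members at 24 h and 0 at 48 h by edgeR, with 0.79% and 8.36% of genes called, and DESeq2 also gave 0 and 0. At an unadjusted p under 0.05, 3 members differed at 24 h (2 higher and 1 lower with T0901317) and 2 at 48 h (1 higher and 1 lower). The largest difference at 48 h was that of SKP2, 0.26 (log2, SE 0.18, adjusted p = 0.353), whose 95% interval from -0.11 to 0.63 includes 0. This difference was called when only these 2 groups were fitted (adjusted p = 0.00615), and the libraries of the groups did not overlap. For CDKN2B the interval was -0.35 to 0.23 and for CDKN1A -0.38 to -0.04. With scaling by library size alone, CCND1 was called higher with T0901317 at 48 h (0.26, adjusted p = 0.00328, against 0.18 and 0.0700 with TMM), and 68.1% of called genes were higher in place of 39.8%.

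Rosiglitazone against GW3965 gave 1 called member at 24 h, CDKN1A, with 10.7% of genes called (4.6% higher and 6.09% lower). CDKN1A was 3.01-fold lower with rosiglitazone (log2 -1.59, SE 0.08, adjusted p = 4.89e-11). At 48 h, 7 of 9 members were called, with 45% of 22470 genes called (22.4% higher and 22.6% lower). CDKN1A was higher with rosiglitazone by 0.81 (log2, SE 0.08, adjusted p = 6.40e-08) and CDKN2B by 2.11 (SE 0.13, adjusted p = 1.25e-10). Lower were CCND3 (-0.72), CCNE1 (-0.78), CCNE2 (-1.43), CDKN2C (-1.80) and SKP2 (-2.23, SE 0.20, adjusted p = 9.33e-09). CCND1 and CDKN1B, which fell with both drugs against DMSO, differed by -0.05 (95% interval -0.19 to 0.09) and 0.02 (-0.15 to 0.19). With scaling by library size alone, CCND1 was also called (-0.19, adjusted p = 0.00896), and 35.9% of called genes were higher in place of 49.8%. That scaling moved the median of all genes by -0.137.

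Across all 3 drugs, 6 members had a response to GW3965 at 48 h that was called different from that at 24 h, against 21.6% of 23140 genes. For T0901317 this number was 7, against 17.4% of genes, and for rosiglitazone it was 1 (CDKN1A), against 2.45% of genes. Scaling by library size alone turned the share of higher values among the called genes from 42.9% to 55.7% for T0901317 and from 56.5% to 29.3% for rosiglitazone, whose median over all genes moved by -0.1. Without replicate 1 of rosiglitazone at 48 h, the number for rosiglitazone was 4, since CCNE2, CDKN2C and SKP2 were then called as well. That library had the highest SKP2, CCNE2, CDKN2C, CCNE1 and CCND3 and the lowest CDKN2B, CDKN1A and CCND1 of its group.

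Other genes of the pathway were followed in 8 lists, whose counts stand beside the 38.6% of all genes called in DMSO over time and the 33.6%, 30% and 25.5% called at 48 h with GW3965, T0901317 and rosiglitazone. In DMSO, 14 of 15 S phase and mitosis genes that follow E2F or FOXM1 were lower at 48 h than at 24 h, and all 4 tested S phase and mitotic cyclins were lower. The medians of these lists were -0.63 and -0.82 (log2), against 0.00 over all genes. Of 12 CDKs and their activating or inhibiting enzymes, 3 were higher and 5 lower (median -0.05). Among 13 RB family and E2F genes 2 were higher and 5 lower (median -0.18), and among 4 other CDK inhibitors 3 were lower (median -0.48). The 14 ubiquitin ligase partners had 4 higher and 5 lower (median -0.13). Of 16 genes for p53 and its targets other than CDKN1A, 8 were higher and 4 lower (median 0.25). Upstream regulators of the members showed 12 higher and 1 lower of 15 (median 0.57).

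With the LXR agonists at 48 h, the upstream regulators, which include SMAD, FOXO and KLF factors, were mostly lower than in DMSO. With GW3965, 2 of 15 were higher and 10 lower (median -0.34), and T0901317 gave the same counts (median -0.53), with medians of 0.00 and 0.01 over all genes. EGR1, an immediate early transcription factor, fell by 3.44 (log2, SE 0.19, adjusted p = 7.56e-11) with T0901317, from 1024 ± 141 to 94.6 ± 12.9 CPM (SD, n = 4). With rosiglitazone 4 of these regulators were higher and 1 lower (median 0.14), and KLF4, a factor of differentiated epithelium, rose by 1.07 (SE 0.11, adjusted p = 3.68e-07). S phase and mitosis genes were called in both directions. With GW3965, 2 of 15 were higher and 4 lower (median -0.10). T0901317 and rosiglitazone each gave 3 higher and 2 lower (medians 0.00 and 0.04). Beside the 33.6%, 30% and 25.5% of all genes called, these counts are not read as particular to the list. PCNA, the sliding clamp of DNA polymerases, rose by 0.82 (SE 0.13, adjusted p = 4.04e-05) with T0901317 at 48 h.

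The p53 list moved in both directions with each drug at 48 h, 4 higher and 7 lower with GW3965 (median -0.22), 6 and 7 with T0901317 (median -0.13) and 4 and 6 with rosiglitazone (median -0.09). GADD45A, a stress sensor and p53 target, fell by 1.99 (log2, SE 0.10, adjusted p = 7.94e-12) with GW3965, from 94.3 ± 8.46 to 23.8 ± 3.20 CPM (SD, n = 4). PHLDA3, a p53 target that restrains AKT, rose by 2.67 (SE 0.12, adjusted p = 3.99e-12) with rosiglitazone, from 11.6 ± 0.847 to 74.9 ± 16.4 CPM. CDKN1C, the third Cip/Kip inhibitor (p57), rose by 1.2 (SE 0.16, adjusted p = 4.23e-06) with GW3965 at 48 h and fell by 1.21 (SE 0.19, adjusted p = 0.000124) with rosiglitazone at 24 h. At 48 h, 1 of the 4 other CDK inhibitors was higher and 1 lower with GW3965. With T0901317 and with rosiglitazone, 0 were higher and 1 was lower. Compared directly at 48 h, 1 of the 4 was called lower with T0901317 than with GW3965, by at least 2-fold.

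With 33.6% and 30% of all genes called with the LXR agonists, the counts in the lists that follow are not read as particular to them. Among the CDKs and their enzymes, 1 of 12 was higher and 4 lower with each LXR agonist at 48 h (medians -0.21 and -0.25), and 2 were higher with rosiglitazone (median -0.01). WEE1, the kinase that holds CDK1 and CDK2 inactive, fell by 0.70 (log2, SE 0.06, adjusted p = 6.66e-09) with GW3965, and PKMYT1, a related kinase, rose by 0.46 (SE 0.12, adjusted p = 0.00404) with rosiglitazone. Of the 14 ubiquitin ligase partners, 4 were lower with GW3965 and 3 with T0901317 (medians -0.18 and -0.03), and 1 was higher with rosiglitazone (median -0.02). CKS2, a CDK-binding relative of the SKP2 cofactor CKS1B, fell by 0.92 (SE 0.11, adjusted p = 1.69e-06) with GW3965. With GW3965, 5 RB family and E2F genes were lower (median -0.13), 1 was higher and 4 lower with T0901317 (median -0.15), and 1 was higher and 5 lower with rosiglitazone (median -0.26). TFDP2, a dimer partner of E2F factors, fell by 1.26 (SE 0.11, adjusted p = 6.83e-08) with rosiglitazone, and E2F4 rose by 0.49 (SE 0.07, adjusted p = 2.67e-05). CCNB1, the mitotic cyclin B1, fell by 0.38 (SE 0.07, adjusted p = 0.000131) with GW3965, where 2 of the 4 S phase and mitotic cyclins were lower (median -0.17), as with T0901317 (median -0.11). With rosiglitazone at 48 h, edgeR and DESeq2 called 0 of these 4, and 1 was higher at an unadjusted p under 0.05 (median 0.10).

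At 24 h, 2.73% of all genes were called with GW3965 and 1.45% with T0901317. Beside these low shares, 6 of the 8 lists, with 62 tested genes, had 0 called genes with GW3965 and with T0901317 by edgeR. These counts of 0 are not read as particular to the lists. DESeq2 gave 2 lower genes with GW3965 and 0 with T0901317, and at an unadjusted p under 0.05 edgeR gave 5 higher and 9 lower genes with GW3965 and 1 and 6 with T0901317. The others were the p53 list, with 2 higher and 1 lower with GW3965 and 1 and 2 with T0901317, and the upstream regulators, with 3 and 1 higher. With rosiglitazone at 24 h, 12.3% of all genes were called (5.81% higher and 6.52% lower). Beside that share, 3 S phase and mitosis genes were higher and 1 lower, and 2 of the 4 S phase and mitotic cyclins were higher. CCNB1 rose by 0.33 (log2, SE 0.07, adjusted p = 0.00205) and CKS1B by 0.32 (SE 0.08, adjusted p = 0.00912). Of the other lists with rosiglitazone, the RB and E2F genes had 1 higher and 4 lower, the p53 list 2 higher and 3 lower and the upstream regulators 4 higher and 1 lower. The CDKs and their enzymes and the ubiquitin ligase partners had 1 higher each, and the other CDK inhibitors 1 lower.

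**Figure D4:**
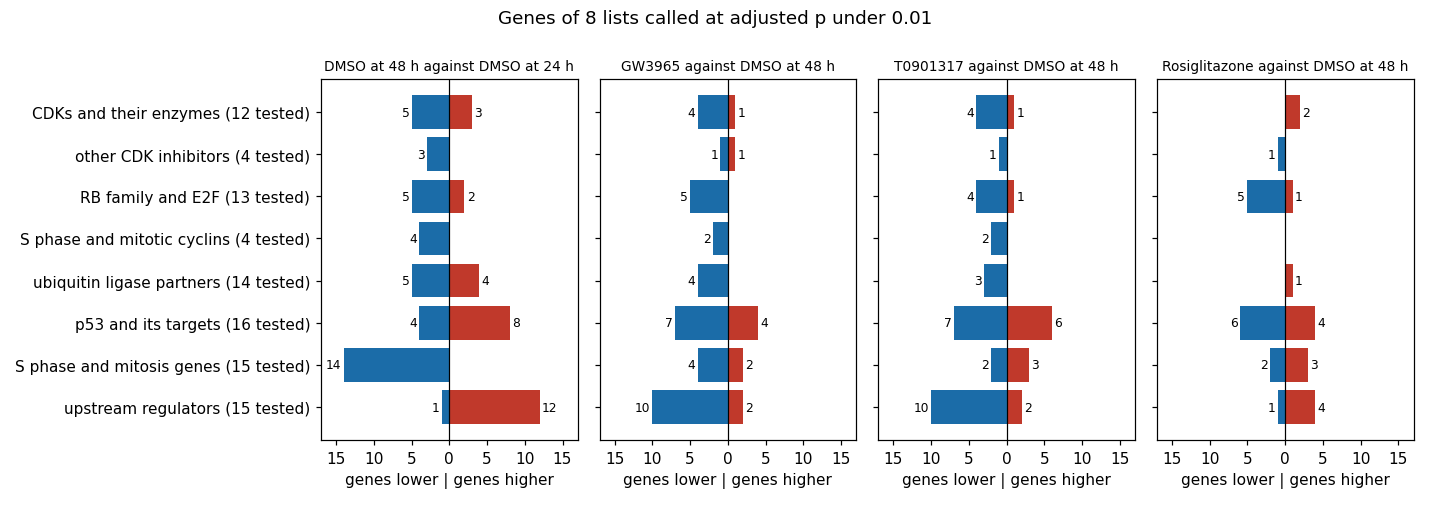
Number of genes called higher (red) and lower (blue) at an adjusted p under 0.01 in 8 lists of cell cycle genes and regulators, for DMSO at 48 against 24 h and for each drug against DMSO at 48 h. The S phase and mitosis genes are nearly all lower at 48 h than at 24 h in DMSO (14 of 15), and 10 of 15 upstream regulators are lower with each LXR agonist.

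For each of the 9 tested members, the genes with the most similar profile were sought among 14307 genes with a mean log2 CPM of at least 1, by Pearson's r over the 32 libraries. CDKN1A was closest to DDIT4 (r = 0.992), an inhibitor of mTORC1 that is induced by stress, and CHAC1 (r = 0.991), an enzyme that degrades glutathione. CDKN2B was closest to ERRFI1 (r = 0.991), a feedback inhibitor of the EGF receptor, and MCL1 (r = 0.989), which protects cells from apoptosis. SKP2 was closest to MYB (r = 0.985), a transcription factor of dividing crypt cells, and RBBP4 (r = 0.985), a histone-binding partner of RB1. CDKN2C was closest to CNP (r = 0.978) and FAM111B (r = 0.977), CCNE2 to RCN2 (r = 0.964) and FAM111B (r = 0.960), and CCNE1 to PTPLAD1 (r = 0.966) and SQLE (r = 0.965), an enzyme of cholesterol synthesis. CCND3 was closest to TCFL5 (r = 0.980) and POLE (r = 0.977), the catalytic subunit of a replicative DNA polymerase. CDKN1B (CLDN1, r = 0.904, and BAZ2B, r = 0.899) and CCND1 (AL359758.1, r = 0.865, and GPR126, r = 0.844) had less similar neighbours. The libraries share treatment groups and time points, so these values describe common profiles over 8 groups and carry no p-value.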

How the data were processed

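RNA-seq of bead-selected mRNA, made into paired-end Nextera libraries, was measured in 32 libraries of HT29 cells, 4 in each of 8 groups. The authors deposited raw counts of reads per gene, with 1 table for 24 h and 1 for 48 h, and the submitters' processing notes name TopHat, Cufflinks and hg19. For the counting program, its strand setting and the annotation version, the sources used here give no information. No replicates were pooled. The ChIP-seq peaks, on hg19, were not analysed here, because the gene positions used here are on GRCh38. Libraries held 21044798 to 51332656 counts.

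Genes were filtered with filterByExpr, scaled with TMM and tested with the quasi-likelihood F test of edgeR 4.0.16 (limma 3.58.1, R 4.3.3), with Benjamini-Hochberg adjustment over all genes of a fit and a threshold of 0.01. Drug comparisons were fitted on the 16 libraries of a time point (21781 genes at 24 h, 22470 at 48 h). Differences between responses, and changes over time, were fitted on all 32 (23140 genes). SE is the absolute log2 fold change divided by the square root of F, and intervals are 95%. The fits were tested on simulated counts. DESeq2 1.42.0, other scalings, no filter, a replicate block, other sets of libraries, a 1.5-fold test and leaving out each library were tried as alternatives. Replicate pairs differed by more than sampling noise. Replicate 1 of GW3965 at 24 h stood furthest apart, with a chi-square per degree of freedom of 31.8, 73.2 and 66.4 against its group. The others of that group had 5.30 to 11.5 among themselves, and replicates 1 and 3 of rosiglitazone at 48 h had 53.1. Correlations of the deviations of same-numbered libraries ranged from -0.404 to 0.490 at 24 h and from -0.171 to 0.312 at 48 h. Between libraries of different numbers they ranged from -0.526 to 0.397 at 24 h and from -0.319 to 0.248 at 48 h. At 48 h all pairs of replicate 3 were positive, from 0.0358 to 0.312. Whether these libraries share an effect was not tested. The numbers were not taken to pair the libraries in the main fits, and the replicate block was an alternative. Python 3.11.15, pandas 2.3.3 and matplotlib 3.10.9 were used for sequences and figures.

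All 10 members are named, with the 2 most correlated genes of each member that was called with a drug, and from each list the genes with the largest called increase and decrease over the 6 drug comparisons. A gene that this rule names is not reported here. The members and lists were chosen with earlier results of these data known.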

Additional observations from a re-analysis of the deposited data

Results flagged for a closer look

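In 14 cases the response of a member to a drug differed between 48 and 24 h by edgeR's test of the difference itself (log2, adjusted p over 23140 genes). With GW3965 the differences were 0.56 for CCND3 (adjusted p = 0.00435), 0.89 for CCNE1 (adjusted p = 0.000103), -1.64 for CDKN1A (adjusted p = 6.37e-13), -2.06 for CDKN2B (adjusted p = 5.34e-11), 1.16 for CDKN2C (adjusted p = 0.000384) and 1.58 for SKP2 (adjusted p = 2.04e-07). With T0901317 they were -0.32 for CCND1 (adjusted p = 0.0073, lost under 3 alternatives and without any 1 of 10 libraries), 0.95 for CCNE1 (adjusted p = 5.21e-05), 0.94 for CCNE2 (adjusted p = 0.00267), -1.67 for CDKN1A (adjusted p = 6.65e-13), -2.27 for CDKN2B (adjusted p = 8.03e-12), 1.22 for CDKN2C (adjusted p = 0.000275) and 1.71 for SKP2 (adjusted p = 4.89e-08). With rosiglitazone it was 0.77 for CDKN1A (adjusted p = 8.67e-05).

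A single library stood apart from the other three in 4 of 76 groups tested, by a gap that exceeded Dixon's critical value at the 95% level, which chance gives in about 1 of 20 groups of continuous values. CCND1 was 94.7 CPM in replicate 1 of T0901317 at 48 h, against 84.9 to 86.4 CPM in the others. CCND2 was 0.0437 CPM in replicate 1 of GW3965 at 24 h, 0.0429 in replicate 3 of GW3965 at 48 h and 0.0259 in replicate 1 of T0901317 at 24 h, with 0 counts in the other libraries of these groups. These CCND2 values stand for 2, 2 and 1 reads, so the gap equals the range by construction and that rate does not apply to them.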

How the results depend on the processing

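Of 25 calls of members against DMSO, 21 were kept under every alternative other than the test against a 1.5-fold change. The 4 that were lost at least once were SKP2 for GW3965 at 24 h, CDKN1B at 48 h for both T0901317 and rosiglitazone, and SKP2 for rosiglitazone at 48 h. No fold change of a called member changed sign in 999 values recomputed with all libraries or in 1440 with a library left out. The test against a 1.5-fold change kept 5 of the 25 calls. It left 1 of 2 members with GW3965, 0 of 1 with T0901317 and 0 of 3 with rosiglitazone at 24 h, and 2 of 8, 2 of 7 and 0 of 4 at 48 h. These lower counts follow from the stricter null value.

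With all 32 libraries in the fit, GW3965 at 24 h gave 1 called member. DESeq2 gave 3 members with T0901317 and 5 with rosiglitazone at 24 h, 2 for rosiglitazone against GW3965 at 24 h and 2 for the rosiglitazone response over time. Scaling by library size gave 5 with rosiglitazone at 24 h, 1 for T0901317 against GW3965 at 48 h (0 with TMM) and 2 for the rosiglitazone response. Fitting only the 2 groups gave 1 for T0901317 against GW3965 at 48 h, and omitting the filter gave 2 for the rosiglitazone response. The cause was not tested.

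Leaving out 1 library gave 1 to 4 called members for the rosiglitazone response, with 4 without replicate 1 of rosiglitazone at 48 h, and 2 to 5 for GW3965 at 48 against 24 h (main value 5, and 2 without replicate 3 of GW3965 at 48 h). It gave 7 to 8 with T0901317 and 3 to 5 with rosiglitazone at 48 h, 5 to 7 for the GW3965 response and 5 to 7 for the T0901317 response. With the replicate number as a block, counts were 2, 1 and 3 at 24 h and 8, 9 and 4 at 48 h for GW3965, T0901317 and rosiglitazone. The block gave 7, 6 and 1 for their responses over time. At 24 h 5 of 16 libraries and at 48 h 4 of 16 were closest to a library of their own number. Depth limits CCND2, whose 11 reads allow no comparison.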
